A study of Mus musculus with 27 samples.

Results

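Integrins, selectins and other adhesion receptors were described in mouse libraries labelled as haematopoietic stem and progenitor cells (HSPCs). This was done by following 35 genes, chosen by symbol, out of the 24418 entries of a gene expression table. The set holds 17 integrin α subunits, 8 integrin β subunits, the selectin genes Selp and Sele, the selectin ligand gene Selplg, and 7 other receptors (Cd44, Icam1, Icam2, Jam2, Jam3, Alcam and Cd47). All libraries came from C57BL/6 mice and there were 9 groups of 3 libraries each. These were E12.5 PL and E12.5 FL from embryos at E12.5, E16.5 FL from embryos at E16.5, bone marrow labelled perinatal (Perinatal BM), and bone marrow at 1, 3, 4, 6 and 8 weeks (1w to 8w BM). FL is read as fetal liver and BM as bone marrow, while the labels do not spell out PL. The surface markers used for sorting, the sex of the animals, the perinatal day, and whether a library came from 1 animal or a pool are not stated in the labels, so p-values measure the spread between these libraries.

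An integrin is a pair of one α and one β subunit on the cell surface, and the pair decides the ligand: collagen, laminin, fibronectin, vitronectin, or receptors on other cells. Selectins bind sialylated and fucosylated sugars on carriers such as PSGL-1, the product of Selplg, and slow a circulating cell on a vessel wall before integrins arrest it. In blood-forming tissue these receptors are known for seeding of the fetal liver and marrow, for holding progenitors next to stroma, and for their release into blood.

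Values are FPKM, that is fragments scaled to transcript length and to the mapped total, so levels of different genes can be set side by side. FPKM summed to 519810 to 763033 per library, 14241 to 16964 genes lay above 0, and the relative depth read from the steps between low values ran between 0.683 and 1.625 times the median library. Libraries of a group correlated across genes at r of 0.979 to 0.995 on the log2 scale, against 0.667 to 0.781 between E12.5 PL and all other libraries. Between different FL and BM groups r was 0.9266 to 0.9905, which overlaps the range within groups. The 10 HSPC markers (Kit, Cd34, Ptprc and others) summed to 205 to 288 FPKM in E12.5 PL and to 791 to 1070 FPKM in the other groups, so the E12.5 PL libraries stood apart in the markers of their label. All 8 trophoblast markers reached a mean of 1 FPKM in E12.5 PL, where they summed to 3204 to 3939 FPKM, against 13.0 to 109 FPKM elsewhere. Given these sums, the E12.5 PL libraries are not read below as HSPCs alone. The 8 mast cell markers summed to 1450 to 3933 FPKM in Perinatal BM and to 11.8 to 147 FPKM elsewhere. In bulk libraries, fewer cells of a type and less RNA per cell cannot be told apart.

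Of the 35 genes, 28 reached 1 FPKM in 3 or more libraries and entered the tests, 4 of them (Itga1, Itga7, Itga8 and Jam2) with a group mean of 1 or more only in E12.5 PL. The 7 not tested were Itga10, Itga11, Itgae, Itgb4, Itgb6, Itgb8 and Sele, whose library values all lay at or below 1.36 FPKM. Itgae, the α subunit that pairs with Itgb7 and binds E-cadherin, had that highest value in the first E12.5 PL library. Itgb8 was listed at 0 in all 24 FL and BM libraries. Sele, the endothelial selectin, had 0.949, 0.987 and 0.665 FPKM in E12.5 PL and 0 to 0.491 FPKM elsewhere.

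Among the 35 genes, the dominant transcripts of FL and BM were those of Cd47, Itgb1, Itga4, Itgal, Cd44 and Selplg. Cd47, the partner of SIRPα that restrains uptake by macrophages, had group means of 137 to 229 FPKM there. Itgb1, the common β subunit of collagen, laminin and fibronectin receptors, had 68.5 to 91.9 FPKM. Itga4 with Itgb1 or Itgb7 binds VCAM-1 and fibronectin. In each FL and BM group Itga4 took 32.8% to 41.7% of the summed FPKM of the 17 α subunits of the set. Itgal, the α subunit of LFA-1, took 24.9% to 34.6%. This sum leaves out the platelet α subunit Itga2b, which is not among the 35 genes. Itga2b averaged 7.53 FPKM in E16.5 FL and 58.3 FPKM in 8w BM, so the shares hold for the 17 alone. Over the 8 FL and BM groups, 25 of the 28 tested genes varied (limma F test, adjusted p under 0.05), where 74.8% of all 13350 genes tested did. Among the 25 were Itga1 and Itga8, which entered through E12.5 PL alone. Their FL and BM group means were at most 0.789 and 0.517 FPKM. Cd44, the hyaluronan receptor, did not pass (adjusted p = 0.381): its FL and BM libraries lay between 58.2 and 77.0 FPKM except for 99.3 FPKM in the second 6w BM library. Itga7 (adjusted p = 1) and Jam2 (adjusted p = 0.614), both under 1 FPKM there, did not pass either.

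**Figure D1:**
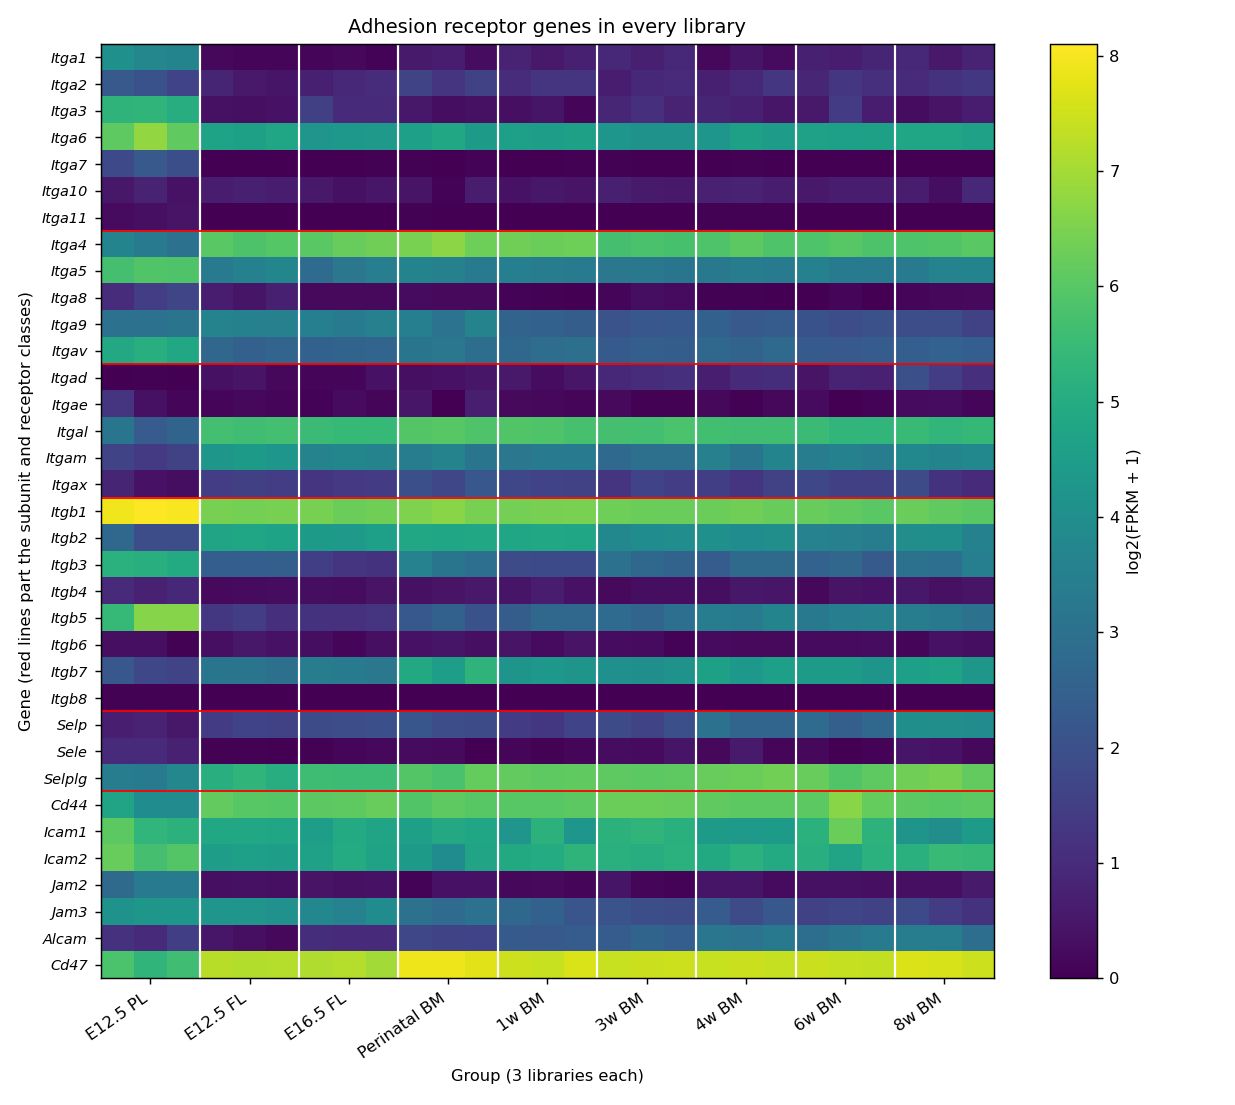
Heat map of log2(FPKM + 1) for all 35 genes (rows, parted by subunit and receptor class) in all 27 libraries (columns, 3 per group, with E12.5 PL at the left followed by FL and BM in order of age). Itgb1, Itga4, Itgal, Cd44, Cd47 and Selplg are strong in every FL and BM column, and the E12.5 PL columns differ from all others.

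Promoters are shown for the 4 genes whose change with age the results below follow most closely: Selp, Alcam and Itgb5, which gained transcripts in marrow, and Icam1, which moved between marrow ages. Each run is the 250 bases before the RefSeq start on GRCm38.p6, written along the gene's strand, with capitals for matches to short motifs of blood-cell factors searched on both strands.
Selp, chr1:164115014-164115263, plus strand: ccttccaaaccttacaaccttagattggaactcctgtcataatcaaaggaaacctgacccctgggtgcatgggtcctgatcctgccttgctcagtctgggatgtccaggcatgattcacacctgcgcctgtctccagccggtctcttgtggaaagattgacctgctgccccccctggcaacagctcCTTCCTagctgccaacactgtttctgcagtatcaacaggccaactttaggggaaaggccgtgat
Alcam, chr16:52453082-52453331, minus strand: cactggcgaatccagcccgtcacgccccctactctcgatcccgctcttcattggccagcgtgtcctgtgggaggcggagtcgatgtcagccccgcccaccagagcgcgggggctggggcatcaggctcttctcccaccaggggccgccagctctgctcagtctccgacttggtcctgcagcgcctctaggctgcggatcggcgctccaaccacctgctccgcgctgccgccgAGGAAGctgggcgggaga
Itgb5, chr16:33829415-33829664, plus strand: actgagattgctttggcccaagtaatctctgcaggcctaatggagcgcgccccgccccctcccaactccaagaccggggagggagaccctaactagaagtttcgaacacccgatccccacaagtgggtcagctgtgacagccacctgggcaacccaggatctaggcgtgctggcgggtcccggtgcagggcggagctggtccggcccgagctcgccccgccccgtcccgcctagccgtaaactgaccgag
Icam1, chr9:21015690-21015939, plus strand: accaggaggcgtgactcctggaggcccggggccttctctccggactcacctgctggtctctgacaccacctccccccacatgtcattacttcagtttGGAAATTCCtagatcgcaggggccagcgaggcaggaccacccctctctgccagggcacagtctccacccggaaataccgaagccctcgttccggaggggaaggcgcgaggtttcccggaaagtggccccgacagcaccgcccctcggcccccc
The letters searched for GATA factors were AGATAA as well as the form AGATAG, and likewise TGATAA as well as the form TGATAG (in 26.5% of 32851 promoter windows of the same length), those for RUNX factors were TGTGGT (14%), those for ETS factors AGGAAG (29.5%), and those for NF-κB GGANNTTCC (3.59%). No match overlaps another in these 4 windows. Selp holds the ETS letters as CTTCCT at -64 to -59 from the start and Alcam holds AGGAAG at -18 to -13. Icam1 holds GGAAATTCC at -153 to -145, and Itgb5 holds none of these motifs. Of the 35 genes, 23 had a promoter entry, and among these the GATA letters stood in 4, RUNX in 2, ETS in 12 and NF-κB in 2. A match describes letters in a window and not a bound site.

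E12.5 PL was set against E12.5 FL, the sources sampled on the same embryonic day. E12.5 PL held far more transcript of the integrin subunits Itgb1, Itga6, Itgb5, Itga5 and Itga3, and far less of the leukocyte integrins Itgal, Itgam and Itgb2. Of the 28 tested genes 15 were higher and 11 lower in E12.5 PL, where 41.0% and 33.2% of all genes tested were called higher and lower, and the median difference was 0.749 on the log2(FPKM + 1) scale against 0.064 for all genes. Most genes of the table differ between these groups, and Itga1, Itga7, Itga8 and Jam2 entered the test through E12.5 PL alone. The counts and the median are to be read against that background. E12.5 PL gave the highest group mean for 14 of the 28 and the lowest for 11. Among the 14, the place of Itga1, Itga7, Itga8 and Jam2 was set by their entry through E12.5 PL alone. These counts were not taken over all genes, so they are a description only.

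Among the collagen- and laminin-binding α subunits Itga6 had the highest level in E12.5 PL. Itga2, Itga3 and Itga6 were called higher there, as were 41.0% of all genes tested, while the direction of Itga1 and Itga7 was set by their entry through E12.5 PL alone. Itga6, a laminin receptor subunit, had 67.4, 110 and 68.0 FPKM in E12.5 PL, against 24.7, 23.4 and 26.2 FPKM in E12.5 FL. The groups did not overlap, and the difference was 1.65 ± 0.13 on the log2(FPKM + 1) scale (SE, n = 3 each; limma, adjusted p = 8.65e-11). Itga3, another laminin receptor subunit, had 37.5, 38.4 and 32.2 FPKM in E12.5 PL, against 0.296, 0.261 and 0.324 FPKM in E12.5 FL. Itga1, a collagen receptor subunit, had 15.6, 12.4 and 11.5 FPKM in E12.5 PL, against 0.120, 0.0902 and 0.0747 FPKM in E12.5 FL. Both were near the floor of the fetal liver libraries and differed by 4.84 ± 0.18 for Itga3 and 3.68 ± 0.12 for Itga1 on the log2(FPKM + 1) scale (SE, n = 3 each). The collagen receptor subunit Itga2 (mean 2.99 FPKM in E12.5 PL and 0.534 FPKM in E12.5 FL) and the laminin receptor subunit Itga7 (3.04 and 0.00576 FPKM) were lower in level. Exons of Gm49395 on the same strand overlap Itga1, and those of Mettl7b on the opposite strand overlap Itga7, so reads of these pairs may have been shared.

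The fibronectin and vitronectin receptors followed. Itga5, the α subunit of the classical fibronectin receptor, had 51.8, 59.0 and 57.6 FPKM in E12.5 PL, against 9.45, 10.9 and 12.1 FPKM in E12.5 FL. Itgav, which pairs with several β subunits to bind vitronectin and other RGD ligands, had 28.3, 33.5 and 27.8 FPKM in E12.5 PL, against 5.39, 4.54 and 5.20 FPKM in E12.5 FL. Neither overlapped, with differences of 2.28 ± 0.12 and 2.35 ± 0.10 on the log2(FPKM + 1) scale (SE, n = 3 each; limma, adjusted p = 7.30e-14 and 4.55e-16). Their β partners moved the same way. Itgb1 had 244, 276 and 257 FPKM in E12.5 PL, against 86.0, 83.8 and 85.9 FPKM in E12.5 FL (difference 1.59 ± 0.07, adjusted p = 4.41e-16). Itgb3, which pairs with Itgav or with the platelet subunit Itga2b, had 35.1, 33.5 and 29.8 FPKM in E12.5 PL, against 4.41, 4.33 and 4.52 FPKM in E12.5 FL. Itgb5, a partner of Itgav alone, had 41.7, 97.5 and 97.0 FPKM in E12.5 PL, against 1.47, 1.77 and 1.17 FPKM in E12.5 FL, so the first E12.5 PL library held much less of it than the other two.

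The leukocyte side was reversed. Itgal had 7.78, 4.02 and 5.07 FPKM in E12.5 PL, against 50.7, 47.7 and 50.2 FPKM in E12.5 FL. Itgb2, its β partner, had 5.71, 2.75 and 2.80 FPKM in E12.5 PL, against 25.5, 26.4 and 25.2 FPKM in E12.5 FL. Itgam, the α subunit of Mac-1, had 2.17, 1.59 and 1.99 FPKM in E12.5 PL, against 18.7, 20.3 and 18.1 FPKM in E12.5 FL. None of the 3 overlapped, and they fell by 2.97, 2.55 and 2.78 on the log2(FPKM + 1) scale. Itga4 had 11.7, 8.81 and 7.24 FPKM in E12.5 PL, against 64.8, 55.6 and 62.0 FPKM in E12.5 FL (limma, adjusted p = 1.35e-15). Selplg averaged 10.3 FPKM in E12.5 PL and 34.6 FPKM in E12.5 FL, Cd44 18 and 64.6 FPKM, Cd47 47.4 and 146 FPKM, and Itgb7 2.7 and 7.49 FPKM, all called lower in E12.5 PL. Itga9, a receptor of tenascin and osteopontin, was lower by less (7.36 FPKM in E12.5 PL and 10.9 FPKM in E12.5 FL), as were the weakly expressed Itgax and Selp.

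The immunoglobulin-type receptors were mixed. Jam3, a junctional adhesion molecule also carried by blood progenitors, had 16.8, 18.3 and 18.3 FPKM in E12.5 PL, against 17.6, 17.6 and 16.2 FPKM in E12.5 FL, and the 95% interval of its difference ran between -0.25 and 0.36 on the log2(FPKM + 1) scale. Its paralogue Jam2 averaged 8.18 FPKM in E12.5 PL and 0.268 FPKM in E12.5 FL. Icam2, a ligand of LFA-1 on endothelium and leukocytes, had 73.4, 51.5 and 59.7 FPKM in E12.5 PL, against 22.4, 23.0 and 22.2 FPKM in E12.5 FL. Icam1, the inducible LFA-1 ligand, had 65.0, 38.8 and 35.8 FPKM in E12.5 PL, against 28, 27.6 and 27 FPKM in E12.5 FL. That call (adjusted p = 0.0184) was lost without the first E12.5 PL library (adjusted p = 0.146). The endothelial markers summed to 956 to 1261 FPKM in E12.5 PL and 96.1 to 103 FPKM in E12.5 FL, and the stromal ones to 779 to 2264 and 6.33 to 7.34 FPKM, with all 8 of each at a mean of 1 or more in E12.5 PL. Their part, and that of the trophoblast markers, in the differences of this comparison was not tested.

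**Figure D2:**
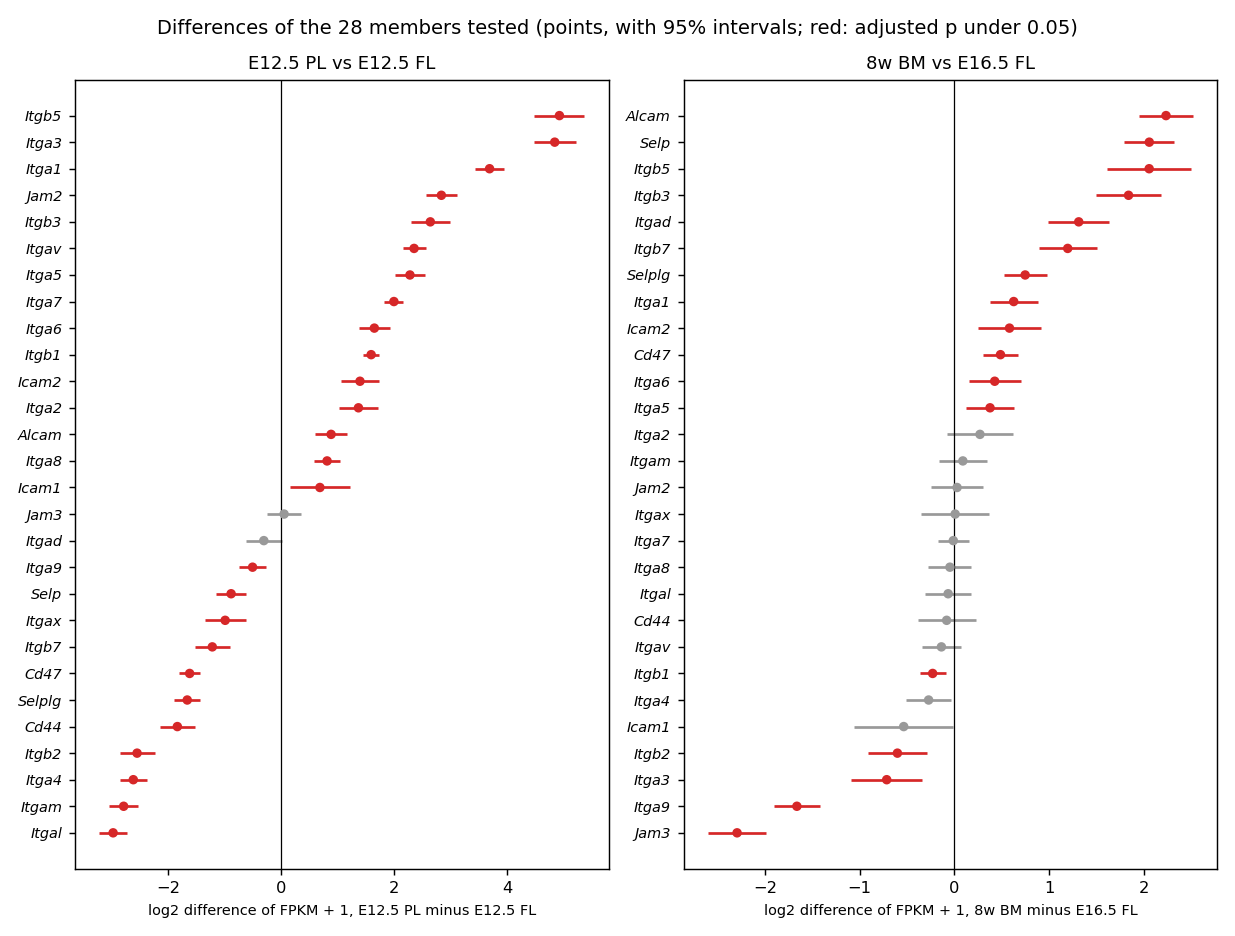
Differences on the log2(FPKM + 1) scale for the 28 tested genes in 2 comparisons, E12.5 PL with E12.5 FL (left) and 8w BM with E16.5 FL (right), as points with 95% intervals and with red for an adjusted p under 0.05. Differences reach from -2.97 for Itgal to 4.92 for Itgb5 in E12.5 PL minus E12.5 FL, and from -2.29 for Jam3 to 2.23 for Alcam in 8w BM minus E16.5 FL.

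Other adhesion genes were measured beside the 35, in a comparison where 41.0% of all genes tested were higher and 33.2% lower. Of 21 tested extracellular ligands 20 were higher and 1 lower in E12.5 PL, but a gene could enter the test through E12.5 PL alone, so this count is a description and no support for the direction. Fn1, fibronectin, had 216, 256 and 241 FPKM in E12.5 PL, against 8.86, 7.25 and 9.27 FPKM in E12.5 FL, and the laminin chain Lamb1 averaged 745 FPKM in E12.5 PL and 0.165 FPKM in E12.5 FL. Of 38 integrin activators and adaptors 24 were higher and 12 lower, against the same shares of all genes. Fermt2, the kindlin of adherent cells, averaged 80.3 FPKM in E12.5 PL and 0.345 FPKM in E12.5 FL, while Rassf5, a Rap1 effector of lymphocyte LFA-1, averaged 2.21 and 24.7 FPKM. The medians of the ligand and adaptor lists were 3.99 and 0.69 on the log2(FPKM + 1) scale, against 0.064 for all genes. Genes that entered through E12.5 PL alone raise such medians, so these too are a description and no support for the direction.

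Within fetal liver, E16.5 FL was compared with E12.5 FL. The fibrinogen receptor subunit Itgb3, Mac-1's Itgam, Itga6 and Itga5 were lower at E16.5, while Selplg and Alcam were higher. Of the 28 tested genes 4 were higher and 6 lower (14.3% and 21.4%), against 19.0% and 15.6% of all genes tested, so the share called is close to the background. Itgb3 had 1.86, 1.4 and 1.3 FPKM in E16.5 FL, against 4.41, 4.33 and 4.52 FPKM in E12.5 FL. Itgam had 11.2, 12.1 and 11.4 FPKM in E16.5 FL, against 18.7, 20.3 and 18.1 FPKM in E12.5 FL. Both were clear of overlap (differences -1.11 ± 0.16 and -0.67 ± 0.12 on the log2(FPKM + 1) scale, SE, n = 3 each; limma, adjusted p = 2.49e-05 and 2.15e-04). Selplg had 47.3, 46.3 and 46.2 FPKM in E16.5 FL, against 33.3, 38.6 and 31.9 FPKM in E12.5 FL (0.42 ± 0.11, adjusted p = 0.00449). Neutrophil markers summed to 245 to 621 FPKM in E16.5 FL, against 2.59 to 4.54 FPKM in E12.5 FL, and B lineage markers to 75.6 to 231 FPKM, against 22.1 to 26.5 FPKM. Their part in the differences of this comparison was not tested.

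Some smaller calls in the same comparison were lost when any of several libraries was left out. Jam3 averaged 12.7 FPKM in E16.5 FL and 17.1 FPKM in E12.5 FL (adjusted p = 0.0347), a call lost without any of E12.5 FL 1, 2 and 3 or E16.5 FL 1 and 2 (adjusted p between 0.0532 and 0.148). Itga6 averaged 18.7 FPKM in E16.5 FL and 24.8 FPKM in E12.5 FL, and its call was lost without E12.5 FL 1 or 3 or E16.5 FL 1 (0.0584 to 0.0892). Itga5 averaged 8.1 FPKM in E16.5 FL and 10.8 FPKM in E12.5 FL, overlapped, and was lost without E12.5 FL 2 or 3 or E16.5 FL 1 (0.0504 to 0.160). Selp averaged 2.78 FPKM in E16.5 FL and 1.91 FPKM in E12.5 FL, lost without E12.5 FL 1 or E16.5 FL 2 or 3 (0.0563 to 0.111). The remaining calls were Itga3 and Alcam, higher, and Itga8, lower, all at means of 1.27 FPKM or less. Integrin α2b, encoded by Itga2b, averaged 7.53 FPKM in E16.5 FL and 15.2 FPKM in E12.5 FL, lower alongside its partner Itgb3. Fut7, the fucosyltransferase that completes selectin ligands, averaged 11.1 FPKM in E16.5 FL and 4.82 FPKM in E12.5 FL and was higher.

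Marrow around birth was then set against late fetal liver. Perinatal BM carried more Itgb7, Itgb3, Itgb5, Cd47, Itgav, Itgal and Selplg than E16.5 FL and less Jam3. Of the 28 tested genes 12 were higher, where 14.2% of all genes tested were, and 2 were lower, where again 14.2% were. The median difference was 0.31 on the log2(FPKM + 1) scale, against 0 over all genes.

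Itgb7, whose pair with Itga4 binds the gut vessel ligand MAdCAM-1, had 29.6, 22.3 and 37.4 FPKM in Perinatal BM, against 9.77, 9.32 and 8.17 FPKM in E16.5 FL. Itgb3 had 11.2, 7.84 and 6.74 FPKM in Perinatal BM, against 1.86, 1.4 and 1.3 FPKM in E16.5 FL. Every perinatal library of both lay above every E16.5 FL library, and the differences were 1.58 ± 0.15 and 1.91 ± 0.16 on the log2(FPKM + 1) scale (SE, n = 3 each; limma, adjusted p = 6.36e-08 and 1.83e-08). Cd47 had 237, 238 and 211 FPKM in Perinatal BM, against 140, 144 and 126 FPKM in E16.5 FL (0.74 ± 0.09, adjusted p = 1.86e-06). Itgb5 averaged 3.86 FPKM in Perinatal BM and 1.27 FPKM in E16.5 FL, Itgav 7.57 and 5.05 FPKM, and Itgal 60.1 and 43.2 FPKM, none with overlap. Jam3 had 7.21, 6.19 and 7.13 FPKM in Perinatal BM, against 12.9, 11 and 14.2 FPKM in E16.5 FL, and the call was kept in every fit run.

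The weaker perinatal calls were Itga1, Itga2, Itga5, Itgax, Selplg and Alcam, higher, and Itga3, lower. Selplg averaged 61.4 FPKM in Perinatal BM and 46.6 FPKM in E16.5 FL, and was lost without Perinatal BM 3 (adjusted p = 0.0751). Itga5 averaged 10.5 and 8.1 FPKM and was lost without E16.5 FL 1 or 2 or Perinatal BM 1 or 2 (0.0586 to 0.260). Itga1, at 0.401 and 0.0882 FPKM, was lost without E16.5 FL 1 or 3 or Perinatal BM 1 or 2 (0.0784 to 0.125), and Itga2, at 1.84 and 0.870 FPKM, without E16.5 FL 1 or Perinatal BM 1 (0.0533 and 0.0537). Mast cell transcripts moved with this group: Cpa3 had 716, 306 and 846 FPKM and Cma1 793, 377 and 1148 FPKM in Perinatal BM, against 15.3, 7.95 and 3.89 FPKM and 11.1, 4.18 and 0.781 FPKM in E16.5 FL. The part of mast cell RNA in the perinatal values was not tested.

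With 1w BM in place of Perinatal BM, an alternative chosen after seeing the data, Itgb7 stayed higher than in E16.5 FL at 17.3, 18.9 and 17.2 FPKM. The calls of Itga2, Itga5 and Itgax were lost (adjusted p = 0.274, 0.131 and 0.226), and Selp was lower by -0.46 on the log2(FPKM + 1) scale (adjusted p = 0.0108) at 1.67, 1.49 and 2.08 FPKM in 1w BM and 2.62, 2.79 and 2.94 FPKM in E16.5 FL.

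Marrow at 8 weeks was compared with marrow around birth and with late fetal liver. These comparisons share the 8w BM libraries, and each also shares its earlier group with the comparison of Perinatal BM and E16.5 FL. Selp, Alcam, Itgb5 and Icam2 were higher in 8w BM than in either earlier group, and Jam3, Itga9, Itgb2 and Itgb1 were lower than in either. Of the 28 tested genes 7 were higher and 10 lower in 8w BM than in Perinatal BM, where 19.2% and 18.6% of all genes tested were. Against E16.5 FL 12 were higher and 5 lower, where 20.5% and 19.7% of all genes were (40.2% in either direction). The medians over the 28 were -0.045 and 0.058 on the log2(FPKM + 1) scale, against 0 over all genes in both. Mast cell markers summed to 38.8 to 56.2 FPKM in 8w BM, against 1450 to 3933 FPKM in Perinatal BM and 11.8 to 59.5 FPKM in E16.5 FL. Neutrophil markers summed to 12.3 to 15.5 FPKM in 8w BM, against 135 to 675 FPKM in Perinatal BM and 245 to 621 FPKM in E16.5 FL, and B lineage markers to 19.7 to 22.4, 24.9 to 74.7 and 75.6 to 231 FPKM in the same order. Their part in the differences of 8w BM was not tested.

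**Figure D3:**
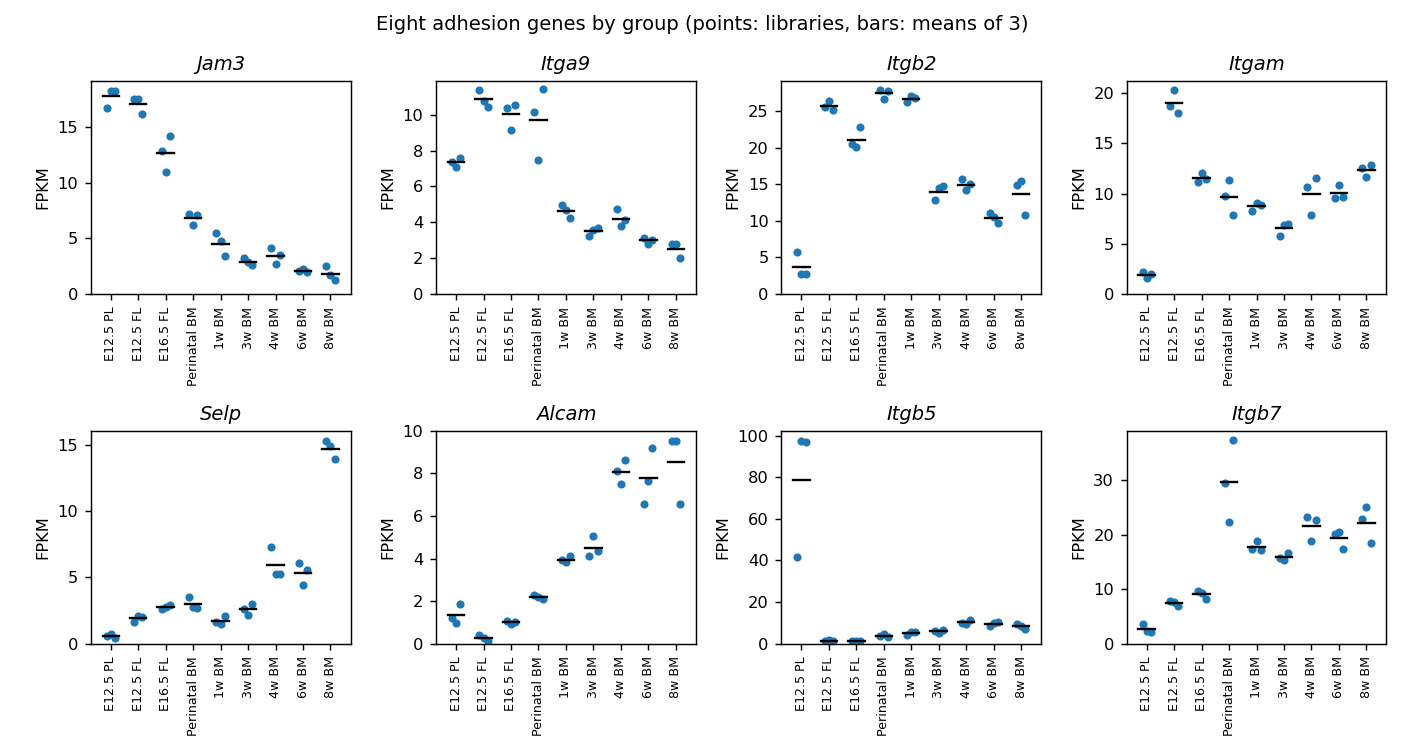
FPKM of 8 adhesion genes by group (x axis, E12.5 PL at the left, then FL and BM by age), with a point per library and a bar at the group mean, each panel on its own linear axis from 0. Among FL and BM group means, Selp and Alcam are highest (14.7 and 8.53 FPKM) and Jam3 and Itga9 lowest (1.82 and 2.51 FPKM) in 8w BM.

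Selp, or P-selectin, is stored in platelets and endothelium and brings leukocytes to a vessel wall. Its means were 1.91 FPKM in E12.5 FL, 2.78 in E16.5 FL, 2.99 in Perinatal BM, 1.75 in 1w BM, 2.58 in 3w BM, 5.94 in 4w BM, 5.36 in 6w BM and 14.7 in 8w BM. The 8w BM libraries had 15.3, 14.9 and 13.9 FPKM, against 3.5, 2.77 and 2.71 FPKM in Perinatal BM, with no library between 7.26 and 13.9 FPKM. The difference was 1.98 ± 0.13 against Perinatal BM and 2.06 ± 0.13 against E16.5 FL on the log2(FPKM + 1) scale (SE, n = 3 each; limma, adjusted p = 6.35e-11 and 2.64e-11). The steps to 4w BM and to 8w BM were each called (0.95 and 1.31, adjusted p = 2.60e-04 and 1.81e-06). Exons of the lincRNA Gm16548 overlap Selp on the opposite strand and strand use in counting is not stated: Gm16548 had 2.83, 1.71 and 2.44 FPKM in 8w BM, against 0.872, 0.613 and 0.422 FPKM in 6w BM.

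The summed megakaryocyte markers were also highest in 8w BM. The sum was 46.5 to 56.1 FPKM in 1w BM and 83.9 to 118 FPKM in 3w BM. At that step Selp was not called in the main fit. It was called with a filter at 5 FPKM (limma, adjusted p = 0.0484) and without 1w BM 3 (0.0476). The marker sum was 65.9 to 133 FPKM in 4w BM, where the Selp step was called. In E12.5 PL it was 72.8 to 113 FPKM, with a Selp mean of 0.578 FPKM. The 8 markers summed to 152 to 157 FPKM in 8w BM, against 46.2 to 83.5 FPKM in Perinatal BM and 30.7 to 33.6 FPKM in E16.5 FL. Pf4, a platelet granule chemokine, had 75.9, 71.7 and 65.5 FPKM in 8w BM, against 16.8, 14.4 and 4.90 FPKM in Perinatal BM. Itga2b, the platelet α subunit and a marker of that list, had 52.9, 59.5 and 62.5 FPKM in 8w BM, against 34.2, 32.7 and 18.9 FPKM in Perinatal BM, while Gp6 was listed at 0 in both groups and Gp9 had 9.24, 7.31 and 10.1 FPKM in 8w BM, against 20.8, 15.5 and 17.1 FPKM in Perinatal BM. The part of megakaryocytic cells in the Selp level was not tested. Itgb3, partner of Itga2b, followed another course: 4.42 FPKM in E12.5 FL, 1.52 in E16.5 FL, 8.58 in Perinatal BM, 2.58 in 1w BM, 5.93 in 3w BM, 5.38 in 4w BM, 4.72 in 6w BM and 8.09 in 8w BM. Its step down to 1w BM (-1.39 on the log2 scale, adjusted p = 4.00e-06) and up to 3w BM (0.94, adjusted p = 7.03e-04) were called. The step to 8w BM (adjusted p = 0.0139) was lost without 6w BM 3 or 8w BM 3 (0.0738 and 0.0880).

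Alcam, or CD166, binds itself and CD6 and was barely present in E12.5 FL. Its means were 0.262 FPKM in E12.5 FL, 1.01 in E16.5 FL, 2.20 in Perinatal BM, 3.95 in 1w BM, 4.50 in 3w BM, 8.08 in 4w BM, 7.81 in 6w BM and 8.53 in 8w BM. The 8w BM libraries had 9.54, 9.5 and 6.56 FPKM, against 2.31, 2.20 and 2.11 FPKM in Perinatal BM. The difference was 1.56 ± 0.14 against Perinatal BM and 2.23 ± 0.14 against E16.5 FL on the log2(FPKM + 1) scale (SE, n = 3 each; limma, adjusted p = 1.18e-08 and 2.50e-11). The steps from E12.5 to E16.5 FL, to Perinatal BM, to 1w BM and to 4w BM were each called, while those to 3w, 6w and 8w BM were not.

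Itgb5 took a similar course at like levels. Its means were 1.47 FPKM in E12.5 FL, 1.27 in E16.5 FL, 3.86 in Perinatal BM, 5.06 in 1w BM, 6.06 in 3w BM, 10.2 in 4w BM, 9.70 in 6w BM and 8.49 in 8w BM. It had 9.59, 8.70 and 7.18 FPKM in 8w BM, against 3.70, 4.73 and 3.16 FPKM in Perinatal BM (0.97 ± 0.21 on the log2(FPKM + 1) scale, SE, n = 3 each; limma, adjusted p = 0.00106). No step after Perinatal BM was called. The step to 4w BM (0.67, limma, adjusted p = 0.0506) passed the threshold under 6 alternatives, with adjusted p of 0.00363 without the E12.5 PL libraries, 0.0171 with the compared libraries alone and 0.045 to 0.04995 with a pseudocount of 0.1, a filter at 5 FPKM, median-of-ratios scaling or the replicate block. Its α partner Itgav went the other way, with 4.36, 4.83 and 4.30 FPKM in 8w BM, against 7.85, 8.31 and 6.54 FPKM in Perinatal BM (-0.64 ± 0.10, adjusted p = 2.65e-05). Icam2 had 34.4, 43.8 and 41.1 FPKM in 8w BM, against 20.3, 14.5 and 25.6 FPKM in Perinatal BM (0.98 ± 0.16, adjusted p = 5.45e-05), and its step to 1w BM was called.

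Jam3 and Itga9 were lower in 8w BM than in Perinatal BM and E16.5 FL. Jam3 means were 17.1 FPKM in E12.5 FL, 12.7 in E16.5 FL, 6.84 in Perinatal BM, 4.53 in 1w BM, 2.92 in 3w BM, 3.47 in 4w BM, 2.07 in 6w BM and 1.82 in 8w BM. Libraries had 2.48, 1.72 and 1.27 FPKM in 8w BM, against 7.21, 6.19 and 7.13 FPKM in Perinatal BM. The difference was -1.49 ± 0.15 against Perinatal BM and -2.29 ± 0.15 against E16.5 FL on the log2(FPKM + 1) scale (SE, n = 3 each; limma, adjusted p = 5.92e-08 and 4.95e-11). Single steps between marrow ages were small and were lost when some library was left out: to 1w BM without Perinatal BM 1 (adjusted p = 0.0618) or 1w BM 3 (0.132), to 3w BM without 1w BM 1 or 2 or any 3w BM library (0.0614 to 0.199), and to 6w BM without 4w BM 1 or 3 or any 6w BM library (0.0974 to 0.230). Exons of the antisense gene Gm48796 overlap Jam3.

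Itga9 means were 10.9 FPKM in E12.5 FL, 10.04 in E16.5 FL, 9.69 in Perinatal BM, 4.64 in 1w BM, 3.5 in 3w BM, 4.21 in 4w BM, 2.99 in 6w BM and 2.51 in 8w BM. It therefore differed from Jam3 in holding its level across the fetal liver and perinatal groups: no difference among those 3 groups was called between neighbours. It had 2.76, 2.77 and 1.99 FPKM in 8w BM, against 10.2, 7.46 and 11.4 FPKM in Perinatal BM (-1.60 ± 0.12 on the log2(FPKM + 1) scale, SE, n = 3 each; limma, adjusted p = 6.53e-10). Most of the difference lay in the step to 1w BM, where libraries had 4.97, 4.71 and 4.23 FPKM (-0.91 ± 0.12 against Perinatal BM, adjusted p = 1.47e-05).

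Itgb2 and Itga4 were both lower in 3w BM than in 1w BM. Itgb2 had 26.3, 27 and 26.8 FPKM in 1w BM, close to Perinatal BM (27.9, 26.7 and 27.8 FPKM), and 12.8, 14.5 and 14.7 FPKM in 3w BM. The step to 3w BM was -0.89 ± 0.15 on the log2(FPKM + 1) scale (SE, n = 3 each; limma, adjusted p = 5.08e-04), and 8w BM libraries had 14.9, 15.5 and 10.8 FPKM. Itga4 had 51.1, 53.2 and 52.9 FPKM in 3w BM, against 79.7, 76.6 and 79.0 FPKM in 1w BM (-0.57 ± 0.12, adjusted p = 0.00251). Exons of Cerkl overlap Itga4 on the opposite strand, and Cerkl lay between 0.258 and 1.66 FPKM in all libraries. Neutrophil markers summed to 39.27 to 50.01 FPKM in 3w BM, against 514 to 863 FPKM in 1w BM, and their part in these steps was not tested. Itgal, the main partner of Itgb2, made no called step between successive marrow ages in the main fit. It was lower in 8w BM (43.6, 38.9 and 41.1 FPKM) than in Perinatal BM (59.7, 62.7 and 57.8 FPKM). That difference was -0.53 ± 0.12 (limma, adjusted p = 0.00107). In the fit without E12.5 PL libraries, the Itgal step to 6w BM was called (-0.22, adjusted p = 0.0445). The same fit called the Itgb2 steps to 6w BM (-0.48, adjusted p = 0.00393) and to 8w BM (0.35, adjusted p = 0.0200).

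Among the FL and BM groups, Itgam had its lowest values at 3 weeks and more afterwards. Means were 19.0 FPKM in E12.5 FL, 11.6 in E16.5 FL, 9.68 in Perinatal BM, 8.74 in 1w BM, 6.54 in 3w BM, 10 in 4w BM, 10.03 in 6w BM and 12.4 in 8w BM. Itgam was not called at the step to 3w BM in the main fit. It was called there with a filter at 5 FPKM (limma, adjusted p = 0.0469), the compared libraries alone (0.0297) or no E12.5 PL libraries (0.0376). Its call in 8w BM against Perinatal BM (0.34 on the log2(FPKM + 1) scale, adjusted p = 0.0330) was lost without 8w BM 1 or 3 or Perinatal BM 1 or 3 (0.0589 to 0.201), and the step to 4w BM without 3w BM 1 or 4w BM 1 or 3 (0.0581 to 0.0688). Exons of the protein-coding gene Gm49368 overlap Itgam on the same strand, so reads of this pair may have been split. Itgad, a leukocyte α subunit of macrophages, had 2.92, 1.76 and 1.15 FPKM in 8w BM, against 0.250, 0.303 and 0.390 FPKM in Perinatal BM (1.12 ± 0.16, adjusted p = 7.24e-06). Macrophage markers summed to 93.3 to 147 FPKM in 8w BM, against 33.6 to 38.4 FPKM in Perinatal BM, with C1qa at 25, 26.7 and 13.8 FPKM and 0.119, 0 and 0.694 FPKM. Their part in the Itgad level, whose exons several other transcripts overlap, was not tested.

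Itgb1, Cd47 and Itgb7 were also called lower in 8w BM than in Perinatal BM. Itgb1 had 74.2, 68.8 and 64.3 FPKM in 8w BM, against 91.5, 99.4 and 84.9 FPKM in Perinatal BM (-0.41 ± 0.07 on the log2(FPKM + 1) scale, SE, n = 3 each; limma, adjusted p = 5.13e-05). Against E16.5 FL (86.2, 76.6 and 80.7 FPKM) its call was lost without 8w BM 3 or E16.5 FL 1 (adjusted p = 0.0578 and 0.0546). Cd47 had 201, 196 and 178 FPKM in 8w BM, against 237, 238 and 211 FPKM in Perinatal BM, a call (adjusted p = 0.0257) lost without 8w BM 3 or Perinatal BM 1 or 2 (0.0834 to 0.118), while 8w BM was higher than E16.5 FL (adjusted p = 1.20e-04). Itgb7 averaged 22.2 FPKM in 8w BM and 29.7 FPKM in Perinatal BM and overlapped. That call (adjusted p = 0.0441) was lost without 8w BM 1 or 3 or Perinatal BM 1 or 3 (0.0654 to 0.284), and against E16.5 FL (9.09 FPKM) Itgb7 was higher by 1.19 ± 0.15 (adjusted p = 1.12e-06).

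Set against E16.5 FL, 8w BM was also higher in Itga6 (25.5 and 18.7 FPKM; adjusted p = 0.0130, lost at 0.0513 without E16.5 FL 1) and Itga5 (10.7 and 8.1 FPKM, overlapping; adjusted p = 0.0192). The Itga5 call was lost without 8w BM 2 or 3 or E16.5 FL 1 (0.0703 to 0.183). Itgb3 was higher by 1.84 ± 0.16 and Itgb5 by 2.05 ± 0.21 on the log2(FPKM + 1) scale (SE, n = 3 each; limma, adjusted p = 9.25e-09 and 8.18e-08). Itgax averaged 1.61 FPKM in 8w BM and 2.92 FPKM in Perinatal BM, and its call was lost without 8w BM 3 (adjusted p = 0.0620).

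Selplg was higher in 8w BM than in E16.5 FL, and so were Fut7 and Fut4, which build selectin ligand sugars. It averaged 34.6 FPKM in E12.5 FL, 46.6 in E16.5 FL, 61.4 in Perinatal BM, 68.3 in 1w BM, 66.9 in 3w BM, 77.6 in 4w BM, 66.8 in 6w BM and 79.1 in 8w BM. Libraries had 80.7, 86.5 and 70.0 FPKM in 8w BM, against 47.3, 46.3 and 46.2 FPKM in E16.5 FL (0.75 ± 0.11 on the log2(FPKM + 1) scale, SE, n = 3 each; limma, adjusted p = 9.60e-06). Against Perinatal BM the call (adjusted p = 0.0109) was lost without 8w BM 2 or Perinatal BM 2 (0.0634 and 0.0742). Of 18 tested genes of selectin ligand synthesis, 10 were higher and 2 lower in 8w BM than in E16.5 FL (all genes 20.5% and 19.7%), with a median of 0.289 against 0 for all genes. Fut7 averaged 29.2 FPKM in 8w BM and 11.1 FPKM in E16.5 FL, and Fut4, a related fucosyltransferase, 3.63 and 1.18 FPKM. St3gal6, a sialyltransferase, ran against them at 1.76 and 11.6 FPKM.

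The other lists are to be read against the 20.5% of all genes higher and 19.7% lower in 8w BM than in E16.5 FL. Among other adhesion receptors 10 of 25 tested were higher and 8 lower. Spn, the sialomucin CD43, averaged 125 FPKM in 8w BM and 44.3 FPKM in E16.5 FL. Vcam1, the main ligand of Itga4 with Itgb1, had 18.8, 15.3 and 8.91 FPKM in 8w BM, against 0.655, 0.454 and 1.39 FPKM in E16.5 FL. The macrophage markers summed to 93.3 to 147 FPKM in 8w BM and 42.5 to 49.8 FPKM in E16.5 FL, and their part in the Vcam1 level was not tested. Of 38 activators and adaptors 12 were higher and 10 lower. Ptk2, focal adhesion kinase, averaged 1.48 FPKM in 8w BM and 6.45 FPKM in E16.5 FL, and Flna, an actin crosslinker that binds integrin tails, 99.0 and 63.7 FPKM. Of 21 tested ligands 1 was higher, Vwf, and 6 were lower, among them Fn1 (0.529 and 2.16 FPKM) and Lamc1 (3.43 and 10.3 FPKM).

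Icam1 varied between marrow ages without a trend. It had 17.7, 35.9 and 18.1 FPKM in 1w BM, 35.5, 38.5 and 34.1 in 3w BM, 20.4, 19.4 and 20.5 in 4w BM, 35.1, 77.4 and 36.7 in 6w BM, and 17.2, 15.1 and 20.3 in 8w BM. The 3w and 6w BM libraries all lay above every 4w and 8w BM library. The difference of 8w BM from 6w BM was -1.37 ± 0.25 on the log2(FPKM + 1) scale (SE, n = 3 each; limma, adjusted p = 0.00113), and that of 6w BM from 4w BM was 1.17 ± 0.25 (adjusted p = 0.00931), lost without 6w BM 2 (0.81, adjusted p = 0.0817). The difference of 4w BM from 3w BM (-0.81, adjusted p = 0.0464) was lost without any single library of either group (0.0802 to 0.124). Icam1 in 8w BM against Perinatal BM was not called in the main fit (adjusted p = 0.101). With the compared libraries fitted alone it was called lower (-0.54, limma, adjusted p = 0.014). The same fit for 8w BM against E16.5 FL also called it lower (-0.53, adjusted p = 0.0104), which the main fit did not.

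Nfkbia and Tnfaip3, inhibitors of NF-κB that are its target genes, were looked at after the Icam1 values were seen. Nfkbia had 334, 325 and 290 FPKM in 3w BM, 180, 230 and 130 in 4w BM, 436, 540 and 317 in 6w BM, and 98.3, 77.4 and 166 in 8w BM. Tnfaip3 had 123, 286 and 97.2 FPKM in 6w BM, highest in the same second library as Icam1, Cd44 at 99.3 FPKM and Krt18 at 107 FPKM. Exons of the antisense gene Gm47079 overlap Icam1, and the part of any of these in its values was not tested.

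**Figure D4:**
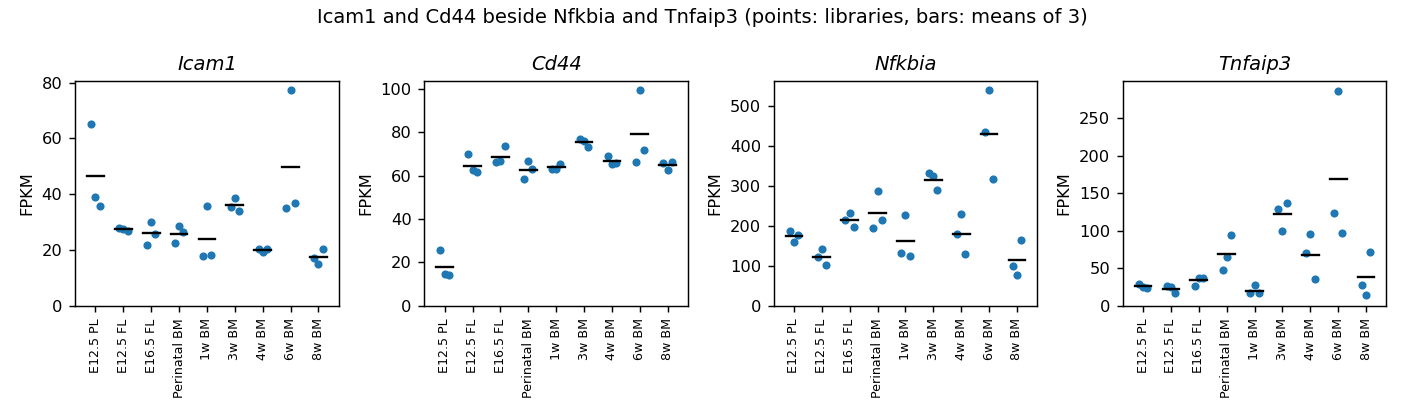
FPKM of Icam1, Cd44, Nfkbia and Tnfaip3 (a panel each, linear axes from 0) by group in the order E12.5 PL, FL and BM by age, with a point per library and a bar at the group mean. Icam1 libraries lie at 34.1 FPKM or more in 3w and 6w BM and at 20.5 FPKM or less in 4w and 8w BM.

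In the main fit, the share of the 28 called at each step between successive marrow ages was above that of all genes tested. These counts are small and some fell when single libraries were left out, so the excess is not read as a trait of the set. In 1w against Perinatal BM 8 of the 28 were called (28.6%), where 17.6% of all genes were, with 2 higher (all genes 8.60%) and 6 lower (all genes 8.97%). In 3w against 1w BM 7 were called (25%, all genes 10.4%), with 3 higher (all genes 5.69%) and 4 lower (all genes 4.76%). In 4w against 3w BM 6 were called (21.4%, all genes 9.28%), with 4 higher (all genes 4.72%) and 2 lower (all genes 4.56%). In 6w against 4w BM 4 were called (14.3%, all genes 3.94%), with 2 higher (all genes 2.59%) and 2 lower (all genes 1.35%). In 8w against 6w BM 4 were called (14.3%, all genes 8.18%), with 3 higher (all genes 2.97%) and 1 lower (all genes 5.21%). The calls of 3w against 1w BM fell to 4 without 3w BM 3. Those of 4w against 3w BM fell to 2 without 3w BM 1 or without 4w BM 1 and to 3 without 4w BM 3. Those of 6w against 4w BM fell to 2 without 6w BM 3, to 1 without 4w BM 1, 4w BM 3 or 6w BM 1, and to 0 without 6w BM 2, where Icam1, Itga1, Itgav and Jam3 were all lost.

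The makeup of the β subunits changed with these levels. Itgb1 took 68.8% of the summed β subunit FPKM in E12.5 PL, 68.3% in E12.5 FL, 70.8% in E16.5 FL, 56.7% in Perinatal BM and 56.6% in 8w BM (means, n = 3 each, SD 4.22, 0.95, 0.90, 4.41 and 1.51). Itgb7 took 0.735% in E12.5 PL, 6.00% in E12.5 FL, 7.93% in E16.5 FL, 18.3% in Perinatal BM, 12.8% in 1w BM and 18.1% in 8w BM. Its range over libraries was 13.8% to 23.3% in Perinatal BM and 7.11% to 8.55% in E16.5 FL, with no overlap. Itgb2 took 1.03% in E12.5 PL, between 16.9% and 20.6% in the groups from E12.5 FL to 1w BM, and between 9.23% and 11.8% from 3w BM on. Itgb5 took 20.3% in E12.5 PL, 1.18% in E12.5 FL and 6.93% in 8w BM. The summed β subunit FPKM was 378 ± 42.1 in E12.5 PL and between 113 and 162 in the FL and BM groups (means, n = 3 each), so shares of E12.5 PL are shares of a larger sum.

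**Figure D5:**
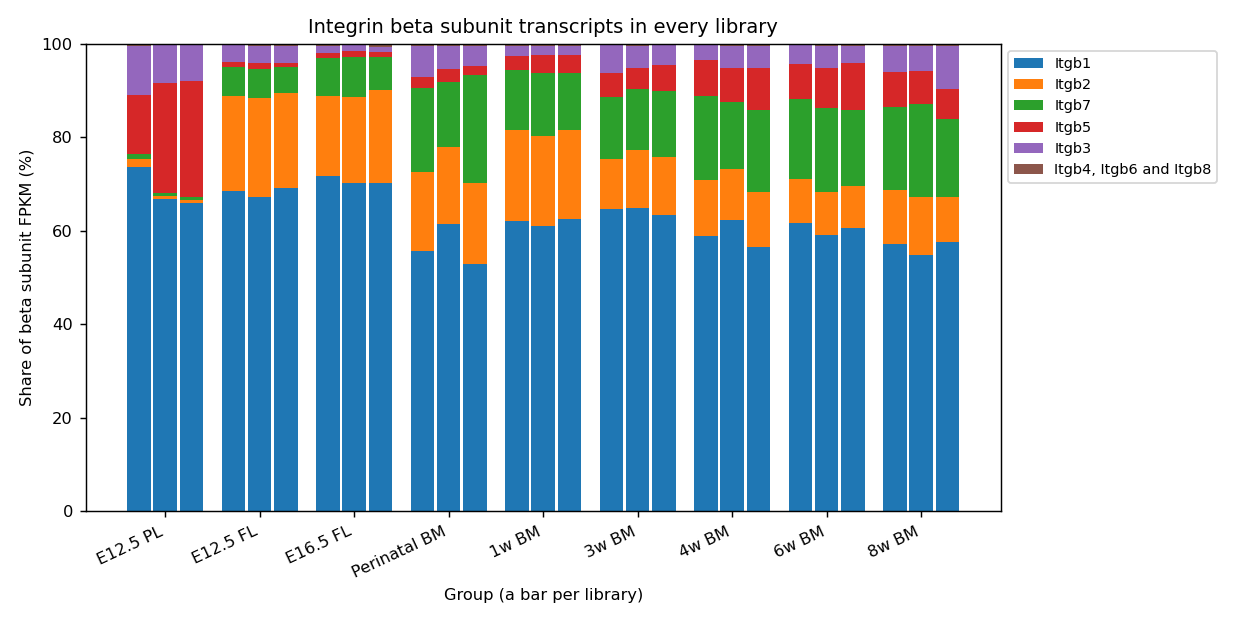
Share of the summed FPKM of the 8 integrin β subunits taken by each (y axis, percent), as one stacked bar per library grouped from E12.5 PL at the left through FL to BM by age. The Itgb2 share is 1.03% in E12.5 PL, 16.9% to 20.6% from E12.5 FL to 1w BM and 9.23% to 11.8% from 3w BM on (means), while the Itgb7 and Itgb5 shares are larger in BM than in FL.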

How the data were processed

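RNA of cells labelled as sorted HSPCs was sequenced in 27 libraries, 3 for each of 9 groups taken from the sample titles. The deposited values are FPKM per gene and library, computed by the authors. Per the submitters' processing notes, Trim Galore, FastQC, STAR 2.7, HTSeq 0.6.1p1 and the GRCm38 build were used. The tool that computed FPKM, its annotation, filters and strand setting are not stated. Read counts were not used, so no counting interval can be given, and relative depth was read from the steps between low FPKM values.

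From these values, log2(FPKM + 1) of the 13350 genes with at least 1 FPKM in at least 3 libraries was fitted with limma 3.58.1 in R 4.3.3, with a mean for each group over all 27 libraries and 18 residual degrees of freedom. Tests were 2-sided with Benjamini-Hochberg adjustment over all genes tested and a threshold of 0.05. A difference on this scale understates the change of low genes. A limma F test compared the 8 FL and BM groups. The scripts were tested on simulated data. Python 3.11.15 was used for values and figures.

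The 35 genes, the 4 lists of other adhesion genes (115 genes) and the 11 lists of cell type markers (88 genes) were chosen with earlier results of these data known. All 35 may be named, with library values where a group mean reached 5 FPKM, and others by mean or range, except where a result turned on a weaker one. Of each other list, up to 4 genes per comparison with the smallest adjusted p were eligible. No correlations between comparisons were computed.

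Replicate numbers were checked for pairing: residuals of same-numbered libraries correlated between -0.205 and 0.227 over 108 pairs, 14 of them over 0.1, and 8 of 27 libraries were closest to their own number. They were treated as unpaired, with the replicate block as an alternative. Also tried were no filter, a filter of 5 FPKM, a pseudocount of 0.1, median-of-ratios scaling, a fit of the compared libraries alone, a fit without E12.5 PL and leaving out each library. Promoter sequences are from RefSeq (GRCm38.p6). Exon overlaps are from GENCODE M21 on GRCm38. One gene of the other adhesion lists is not reported here.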

Additional observations from a re-analysis of the deposited data

How the results depend on the processing

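Counts of members called, taken per comparison and alternative setting, kept within 1.5 times in 149 cases and moved further in 12. A fit gave counts for several comparisons, so these are not separate fits. Those, besides single libraries left out, were 6w against 4w BM, which fell to 2 of 4 calls with no filter and to 0 when the compared libraries were fitted alone, and 8w against 6w BM, which fell to 2 of 4 in that last fit; the cause was not tested. With 1 library left out in turn, members called ran between 21 and 26 for E12.5 PL against E12.5 FL, 7 and 9 for E16.5 against E12.5 FL, 11 and 17 for Perinatal BM against E16.5 FL, 13 and 17 for 8w against Perinatal BM, 15 and 17 for 8w BM against E16.5 FL, 6 and 9 for 1w against Perinatal BM, 4 and 7 for 3w against 1w BM, 2 and 6 for 4w against 3w BM, 0 and 4 for 6w against 4w BM, 3 and 4 for 8w against 6w BM, and 23 and 25 for the F test. With the replicate block, although the numbers do not pair the libraries, calls were 26, 10, 15, 17 and 17 in the first 5 of these comparisons and 3 for 6w against 4w BM.

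For single members, 3325 alternative values kept direction and call, 131 lost a call, 55 gained one and 4 turned. All 4 came from putting 1w BM in place of Perinatal BM, chosen after seeing the data: Selp against E16.5 FL became -0.46 (adjusted p = 0.0108), and 8w BM minus the earlier group became 1.32 for Itgb3 (4.55e-06), 0.29 for Itgb7 (0.182) and 0.0688 for Cd47 (0.655). Jam3 in E16.5 against E12.5 FL also lost its call with a pseudocount of 0.1 (0.0800) and with no filter (0.0537), as did Itgb7 in 8w against Perinatal BM (0.0608 and 0.0640). Depth limits the members under 1 FPKM, for which no count is known.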
